A study of Mus musculus with 18 samples.

Results

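Replication-dependent histone genes were followed in mouse epidermal cells, as the rows of the count table whose symbol starts with Hist1h, Hist2h, Hist3h or Hist4h and whose counts sum to at least 10 over all columns. Of 70 such rows among 52636 genes, 69 met the minimum, and Hist1h2aa, with 5 counts, did not. The 69 members comprised 6 genes of linker histone H1, 19 of H2A, 19 of H2B, 12 of H3 and 13 of H4, and 3 of them are annotated as pseudogenes.

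The cells came from 6 groups of mice on the C57BL/6 background. Zfp36 fl/fl mice carry floxed alleles of Zfp36, which encodes the mRNA decay factor tristetraprolin, and their Zfp36 ΔK14 littermates, named ΔEP here, have lost the gene through a Cre under the human keratin 14 promoter, which is active in basal keratinocytes. Within each genotype, mock skin, skin adjacent to tumors after DMBA (a mutagen) and TPA (a tumor promoter), called treated skin, and papillomas of the same protocol, called tumors, were sampled in 3 columns each. Ages and times of sampling are not in the labels. The methods describe live cells gated on EpCAM, with leukocytes (CD45), fibroblasts (CD140a) and endothelial cells (CD31) gated out, whereas the labels name whole skin as the source and describe both a TRIzol extraction for treated skin and a column kit for sorted cells. Since replicates 2 and 3 of mock ΔEP held equal counts throughout the table, they entered as 1 library, which left 17 libraries and n = 2 in that group. The labels do not state that replicates came from separate mice, so p-values measure the spread between these samples only.

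Cells make histone proteins in bulk while they copy their DNA, when new chromatin must be packed. Most of the mRNAs involved are unusual in having no poly(A) tail: they end in a short stem-loop, which the stem-loop binding protein (Slbp) holds, and they are destroyed quickly when DNA synthesis stops. H2A, H2B, H3 and H4 form the core of the nucleosome, and H1 binds the DNA that links nucleosomes. The kit used for these libraries also captures RNA without a tail, so that such mRNAs can be counted.

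Positions are those of GENCODE for GRCm38, the build that mm10 in the submitters' notes stands for. The Hist1 cluster on chromosome 13 held 53 protein-coding members between 21715763 and 23934156. Chromosome 3 held the 10 Hist2 members between 96219865 and 96270132, chromosome 11 the 3 Hist3 members (2 of them protein-coding, between 58948920 and 58956830) and chromosome 6 Hist4h4 between 136801553 and 136804415. The stem-loop is shown because it sets these mRNAs apart from nearly every other. The letters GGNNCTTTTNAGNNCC, searched on the coding strand of transcripts, lay downstream of the stop codon in 44 of the 69 gene models, 21 to 58 bases after it with a median of 31, and occurred anywhere in a transcript of 72 of 21901 protein-coding genes (0.329%). The 44 loops came in 6 forms, given here with the paired stem in capitals and the loop in lower case.
Shared by 26 members of H1, H2A, H2B and H3: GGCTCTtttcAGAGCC
7 H4 members: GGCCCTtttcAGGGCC
6 members of H1, H2B and H3, Hist1h3c and Hist1h3f among them: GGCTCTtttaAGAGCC
Hist1h4i and Hist2h4: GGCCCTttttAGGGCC
Hist1h4b and Hist1h4j: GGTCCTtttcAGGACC
Hist2h2ac: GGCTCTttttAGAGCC
The 11 H4 models with a loop had stems that none of the other classes used. The other 25 models held no such letters with an exactly paired stem after the stop codon. Among them were Hist1h2bc and Hist2h2be, 2 H2B genes that with Hist1h1c are known to be made as tailed mRNA as well. Several of the 25 models are short, with 381 bases for Hist1h2bl, Hist1h2bn and Hist2h2bb and 312 for Hist1h4k. A loop beyond the annotated end of a model could not be found, so such mRNAs may still carry one. Members resemble each other and some other genes. A median of 57.0% of the 50-base windows of a model also occurred in a transcript of another gene, member or not. By that measure, 37 members shared over 50% of theirs. Hist2h2bb shared 100% of its windows, none of them with a member. Counts of single members therefore depend on how reads that fit several genes were handled, which is not given in the sources used here.

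The H1 promoters are shown because the 5 somatic H1 genes were not equally spread between mock libraries. The stretches run from 125 bases before the RefSeq start of the gene, over 105 bases of GRCm38.p6, with the H1 box (letters AAACACA), the letters CCAAT, and the letters TATAAA or their variant of TATATA, called TATA, in capitals.
Hist1h1a (chr13:23763543-23763647, plus strand): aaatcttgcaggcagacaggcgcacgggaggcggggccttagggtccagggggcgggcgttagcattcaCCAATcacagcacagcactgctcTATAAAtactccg
Hist1h1b (chr13:21780646-21780750, minus strand): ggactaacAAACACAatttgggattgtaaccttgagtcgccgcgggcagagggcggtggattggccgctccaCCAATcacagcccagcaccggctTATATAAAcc
Hist1h1c (chr13:23738682-23738786, plus strand): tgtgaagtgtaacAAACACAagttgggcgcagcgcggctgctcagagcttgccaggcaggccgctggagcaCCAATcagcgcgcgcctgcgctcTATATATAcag
Hist1h1d (chr13:23554907-23555011, plus strand): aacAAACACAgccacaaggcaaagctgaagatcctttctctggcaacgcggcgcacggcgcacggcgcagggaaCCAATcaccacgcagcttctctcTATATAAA
Hist1h1e (chr13:23622579-23622683, minus strand): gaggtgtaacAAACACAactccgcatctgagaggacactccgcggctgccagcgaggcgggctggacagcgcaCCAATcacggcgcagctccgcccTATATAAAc
The letters AAACACA occurred, on either strand, within 7.184% of 32851 promoter windows reaching from 250 bases before to 50 after the start, and in the windows of 5 of 6 H1 members, of 1 of 16 H2A, 2 of 15 H2B and none of 10 H3 and 12 H4 members. CCAAT stood in 37.408% of all windows, and in all 6 H1, 16 of 16 H2A, 15 of 15 H2B, 10 of 10 H3 and 3 of 12 H4 windows. TATA stood in 17.077% of all windows, and in all 6 H1, 12 of 16 H2A, 10 of 15 H2B, 4 of 10 H3 and 8 of 12 H4 windows. The octamer ATTTGCAT stood in 1.735% of all windows, in 6 of 16 H2A and 6 of 15 H2B windows, and in none of the other classes. A match says only that the letters are there. Of the 69 members, 59 had 1 promoter in the table. The stretch of Hist1h1t, the testis form, is not printed, since it held at most 2.34 CPM in any library.

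Total counts ran from 2808550 to 9617985 per library, and the members took 0.2275% to 1.524% of them. CPM here are counts scaled to library size by edgeR's TMM and given per 1000000 counts, a level that is not corrected for gene length. Zfp36 itself reached at most 38.4 CPM in ΔEP libraries and at least 152 CPM in fl/fl libraries. Replicate 1 of both mock groups stood apart: the summed level of 7 keratinocyte markers was 3629 and 3564 CPM in them against 18344 to 21357 CPM in the other mock libraries. Treated ΔEP replicate 1 had the lowest keratinocyte sum of its group, 4868 CPM against 8059 and 20899 CPM. Its sum of melanocyte markers was the highest there, 324 CPM against 47.4 and 48.9 CPM. Tumor fl/fl replicate 1 had the lowest total, the fewest genes with a count (19219) and the highest share of ribosomal RNA (10.9%). Markers of leukocytes and red blood cells were near 0 everywhere (at most 17.6 and 3.32 CPM summed). Fibroblast markers summed to 340 to 1314 CPM in skin and 25.0 to 292 CPM in tumors, and melanocyte markers to 38.4 to 324 CPM in skin and 8.82 to 35.3 CPM in tumors. In bulk RNA, fewer cells in the phase that makes histone mRNA and less of it per cell cannot be told apart. If treated skin alone was extracted with TRIzol, as the labels may mean, extraction and stage cannot be told apart either.

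Histone gene levels were lower in tumors than in treated skin in both genotypes and in all 5 classes. The summed level of the 69 members was 7318, 8147 and 9382 CPM in treated fl/fl libraries and 4340, 2645 and 2811 CPM in tumor fl/fl libraries, or 8283 ± 1039 against 3265 ± 934 CPM (SD, n = 3 each). In ΔEP the libraries held 13035, 6495 and 7050 CPM in treated skin and 4152, 2861 and 3759 CPM in tumors, or 8860 ± 3626 against 3591 ± 662 CPM (n = 3 each). Treated libraries did not overlap with tumor libraries in either genotype, and the means stood 2.54-fold (fl/fl) and 2.47-fold (ΔEP) apart.

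Calls required a fold change over 2 and an adjusted p under 0.05 in edgeR's quasi-likelihood test, with Benjamini-Hochberg adjustment over all genes tested. In fl/fl, 46 of the 64 members that passed the low-count filter were lower in tumors and none was higher, against a background of 10.5% of all tested genes called lower and 18.0% called either way. In ΔEP, 56 of 65 were lower and none higher, against 15.5% called lower and 26.0% called either way. Every tumor library lay below every treated library for 56 of 64 members in fl/fl, where 24.0% of all genes did so, and for 62 of 65 in ΔEP, where 23.7% did. The median log2 fold change of the members was −1.41 in fl/fl and −1.50 in ΔEP, beside medians of −0.02 and −0.03 over all genes. Of the members, 45 were called lower in both genotypes, which is 97.8% of the fl/fl calls and 80.4% of the ΔEP calls. Hist1h4i, an H4 gene named after its values were seen, was the call made in fl/fl alone, and its change was −1.01 there and −0.79 in ΔEP (edgeR adjusted p = 0.0157 and 0.0914).

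**Figure D1:**
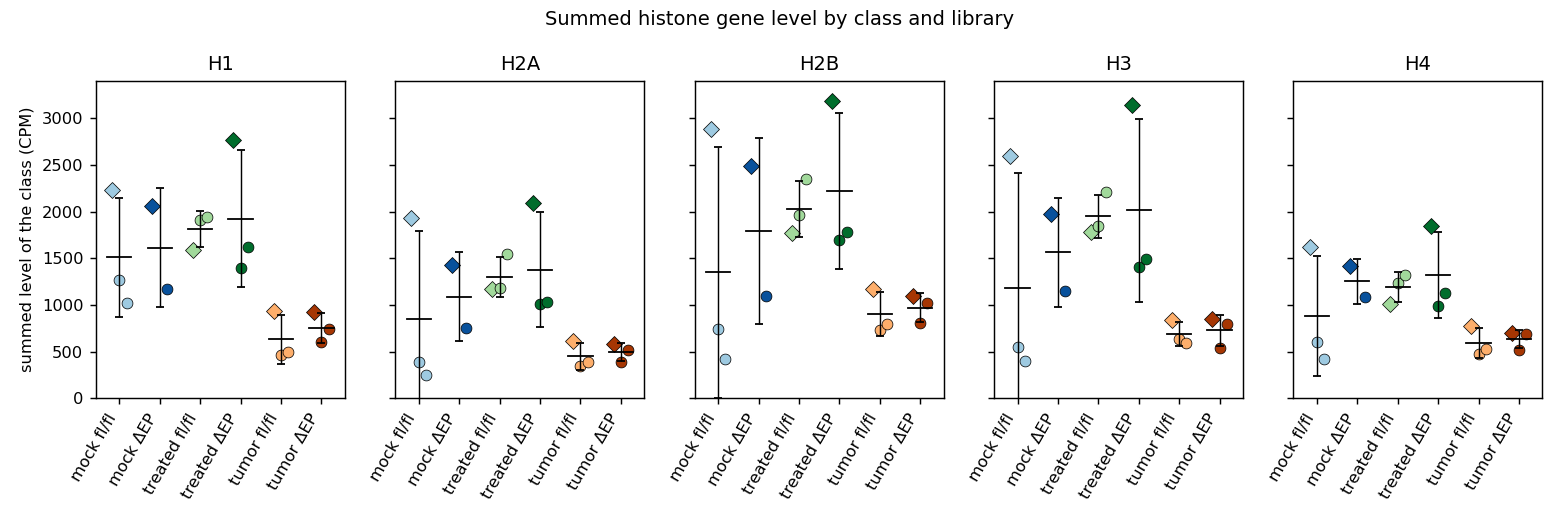
Summed level of each histone class in CPM (vertical axis) in the 17 libraries of the 6 groups (horizontal axis). Points are libraries with replicate 1 as a diamond, long bars are means and whiskers are SD. Tumor libraries lie between 462 and 939 CPM for H1, and treated libraries between 1395 and 2767 CPM. In mock skin, replicate 1 is the highest library of every class.

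The linker histones fell in every member tested. Hist1h1e, the member with the highest summed count, was at 418, 507 and 415 CPM in treated fl/fl and 227, 94.0 and 103 CPM in tumor fl/fl libraries. In ΔEP its level was 600, 318 and 418 CPM in treated skin and 257, 169 and 204 CPM in tumors. Its levels thus did not overlap between the stages in either genotype. The log2 fold change was −1.70 in fl/fl (SE 0.34, edgeR adjusted p = 0.0122) and −1.17 in ΔEP (SE 0.27, edgeR adjusted p = 0.0102). Hist1h1c, the H1 gene also made with a tail, changed by −1.35 (SE 0.27, edgeR adjusted p = 0.0130) and −1.24 (SE 0.28, edgeR adjusted p = 0.0106). All 5 somatic H1 genes were called lower in both genotypes, from −1.09 (Hist1h1a) to −1.89 (Hist1h1d) in fl/fl and from −1.17 (Hist1h1e) to −1.85 (Hist1h1b) in ΔEP.

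Among the core histones, 11 of 17 H2A, 13 of 18 H2B, 10 of 11 H3 and 7 of 13 H4 members tested were called lower in fl/fl. In ΔEP the counts were 15 of 17, 16 of 18, 11 of 12 and 9 of 13. Hist1h2ab, with Hist3h2a the H2A gene of the highest counts, changed by −1.34 in fl/fl and −1.42 in ΔEP and was called in both. Class medians of the log2 fold change lay between −1.12 (H4) and −1.67 (H1) in fl/fl and between −1.25 (H1) and −1.59 (H2A) in ΔEP. H4 therefore had the median nearest to 0 in fl/fl but not in ΔEP, and no test compared the classes.

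Hist3h2a, an H2A gene outside the large cluster (chromosome 11, 58954685 to 58956830, plus strand), had the smallest p of the members in both genotypes. It was at 156, 153 and 220 CPM in treated fl/fl and at 35.1, 27.5 and 27.4 CPM in tumor fl/fl libraries. In ΔEP it was at 209, 121 and 115 CPM and at 39.3, 33.7 and 39.2 CPM. The tumor libraries of both genotypes thus stayed within a narrow band far below treated skin. Its log2 fold change was −2.60 in fl/fl (SE 0.23, edgeR adjusted p = 0.00118) and −2.08 in ΔEP (SE 0.26, edgeR adjusted p = 0.000991). The 2 neighbours of Hist3h2a went the same way. Hist3h2ba, an H2B gene (58948920 to 58949533), was at 11.8, 11.1 and 21.5 CPM in treated fl/fl libraries and at most 0.501 CPM in any tumor library of either genotype, and Hist3h2bb-ps, a processed pseudogene on the minus strand (58954048 to 58954512), fell from 7.57, 8.09 and 10.2 CPM to 2.50, 0.152 and 0 CPM. Both were called in both genotypes (edgeR adjusted p of 0.00225 and 0.0178 in fl/fl, 0.00115 and 0.00147 in ΔEP). The fl/fl call of Hist3h2bb-ps was lost in 5 of the 6 fits that left out a library, with edgeR adjusted p from 0.0544 to 0.0724. With tumor libraries at or near 0 counts, no fold is given for them.

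The H3 genes Hist1h3d and Hist1h3a were next by p in fl/fl. Hist1h3d was at 172, 169 and 210 CPM in treated and 49.1, 60.9 and 55.8 CPM in tumor fl/fl libraries, which is a change of −1.76 on the log2 scale (SE 0.19, edgeR adjusted p = 0.00181), and in ΔEP the change was −1.86 (SE 0.31, edgeR adjusted p = 0.00265). Hist1h3a changed by −1.80 and −1.70 (edgeR adjusted p = 0.00189 and 0.00726). The H3 genes with the highest counts, Hist1h3f and Hist1h3c, changed by −1.43 and −1.51 in fl/fl and by −1.40 and −1.45 in ΔEP, and all were called. Hist2h4, an H4 gene of chromosome 3, was called in both genotypes: its change was −2.11 and −1.98 (edgeR adjusted p = 0.00658 and 0.00151), while that of Hist1h4d, with Hist1h4n the H4 gene of the highest counts, was −0.62 and −0.77 and that of Hist1h4n −0.98 and −0.99, both short of a 2-fold change.

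Members known to be made with a tail as well had the following values, and the difference between them was not tested. Hist1h2bc was at 158, 213 and 222 CPM in treated fl/fl and 146, 107 and 138 CPM in tumor fl/fl libraries, which do not overlap, but its change of −0.63 in fl/fl and −0.65 in ΔEP was not called (edgeR adjusted p = 0.0624 and 0.0563). Hist2h2be, low in all libraries with at most 5.67 CPM, was called in ΔEP (−2.43, SE 0.40, edgeR adjusted p = 0.00269) and not in fl/fl (−1.56, SE 0.67, edgeR adjusted p = 0.121). Hist1h1c was called in both. The H2B genes with the highest counts, Hist2h2bb and Hist1h2bb, changed by −0.97 and −1.15 in fl/fl and by −1.03 and −1.26 in ΔEP. By gene model, the median change in fl/fl was −1.41 over 22 tested members whose annotated model holds no loop, though the mRNA may have one. It was −1.30 over 25 whose model ends under 200 bases past the loop, and −1.44 over 17 whose model runs on further. In ΔEP the same medians were −1.58, −1.52 and −1.39. Members with at most 50% of their windows shared were called lower in 25 of 30 cases in fl/fl and 27 of 30 in ΔEP, and those above it in 21 of 34 and 29 of 35.

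**Figure D2:**
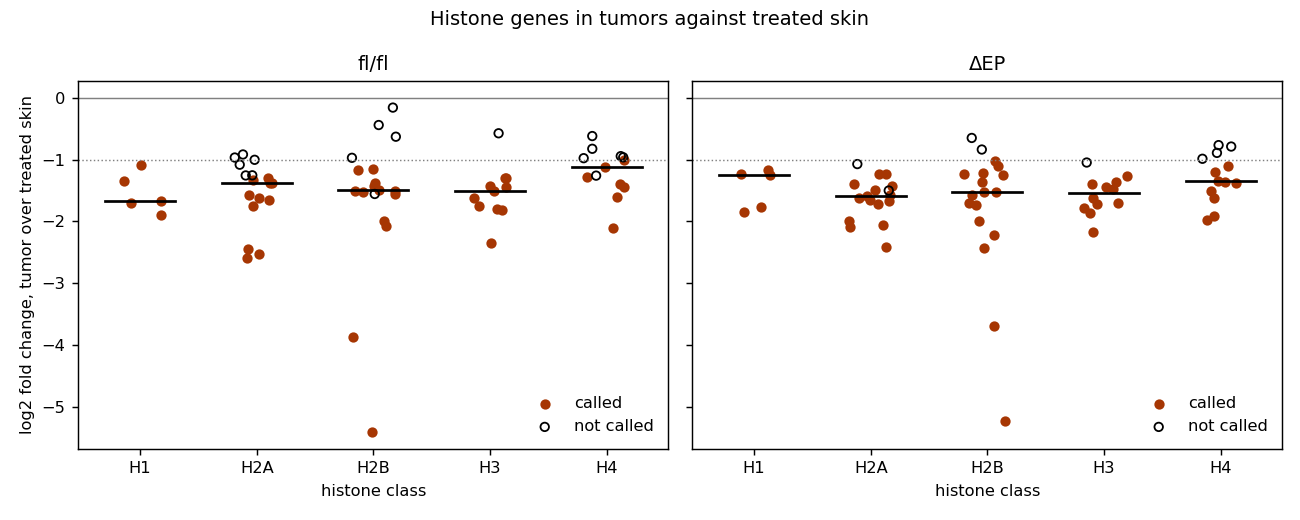
Log2 fold change of each tested member, tumor over treated skin (vertical axis), by histone class (horizontal axis) in fl/fl and ΔEP. Filled points were called, open points were not, bars are class medians, and the dotted line marks a 2-fold decrease. Every point lies below 0, the nearest to it at −0.16 in fl/fl and −0.65 in ΔEP. The lowest point of each genotype is Hist3h2ba, whose fold is not given because its tumor libraries are at or near 0 counts.

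With all 17 libraries in one fit, 15 members in fl/fl and 24 in ΔEP were called lower, against 46 and 56 in the separate fits. The share of all genes called is not given for this fit or for those that leave out a library. The counts therefore do not show whether a loss of calls was particular to the members. Leaving out a library gave 33 to 55 calls in fl/fl (55 without tumor replicate 1) and 36 to 59 in ΔEP, with 36 without treated ΔEP replicate 1, the library with the highest histone level. Among the members named, Hist1h1c, Hist1h1e, Hist1h2ab, Hist1h3c, Hist1h3f, Hist1h2bb and Hist2h2bb then fell short of a 2-fold change in ΔEP, at −0.90, −0.88, −0.96, −0.91, −0.94, −0.85 and −0.77. Hist1h2ab lost its ΔEP call in 2 of the 6 fits that left out a library. In ΔEP, leaving out tumor replicate 2 ended the calls of Hist1h3c, Hist1h2bb and Hist2h2bb, and leaving out tumor replicate 3 that of Hist1h2bb. In fl/fl, the call of Hist1h1e was lost without tumor replicate 3, and that of Hist1h1c without that library or without treated replicate 2.

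Genes of DNA replication were not called alongside the histone genes. The list of 26 held Pcna, the sliding clamp of the replication fork, the Mcm helicase subunits, ribonucleotide reductase and S-phase cyclins, and none was called in any of the 9 pairwise comparisons. Its median log2 fold change from treated skin to tumors was −0.09 in fl/fl and 0.08 in ΔEP (smallest edgeR adjusted p = 0.0865 and 0.0576), and Pcna changed by 0.20 and −0.01. The summed level of the list was 1562 ± 128 CPM in treated fl/fl, 1883 ± 613 CPM in treated ΔEP, 1576 ± 665 CPM in tumor fl/fl and 2211 ± 559 CPM in tumor ΔEP (n = 3 each). Of 14 genes of mitosis none was called in any of these comparisons, with medians of −0.47 and 0.10 from treated skin to tumors.

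Per CPM of the DNA replication list, the histone sum was 4.21, 4.25 and 4.69 in mock fl/fl, 3.89 and 6.37 in mock ΔEP, 4.28, 5.51 and 6.26 in treated fl/fl, and 5.05, 4.50 and 4.35 in treated ΔEP libraries. In tumors it was 1.85, 2.16 and 2.42 in fl/fl and 1.47, 1.63 and 1.83 in ΔEP. All 11 skin libraries thus lay above all 6 tumor libraries, including the mock libraries with few histone counts, in which the replication list was low as well (535 to 835 CPM in mock fl/fl replicates 2 and 3 and mock ΔEP replicate 2). This ratio is given as a description without a test. Against the mitosis list the ratio ran from 3.41 to 10.6 in skin and from 1.92 to 4.45 in tumors, which overlap.

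**Figure D3:**
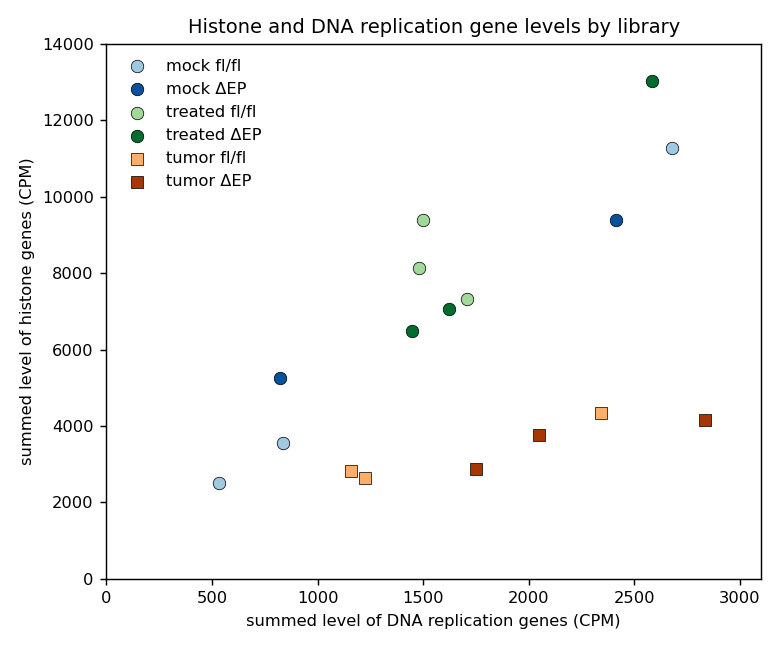
Summed level of the 69 histone genes (vertical axis, CPM) against that of 26 DNA replication genes (horizontal axis, CPM), one point per library, tumors as squares. The 11 skin libraries lie on a steeper course, with 3.89 to 6.37 histone CPM per replication CPM, than the 6 tumor libraries with 1.47 to 2.42.

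Genes that make and handle histone mRNA and protein mostly missed the threshold. Of 12 genes for transcription and processing of histone mRNA, none was called in the 9 comparisons. Slbp changed by −0.14 and −0.44 from treated skin to tumors (edgeR adjusted p = 0.685 and 0.247), and Npat, the coactivator of histone gene transcription, by −0.33 and −0.30 (edgeR adjusted p = 0.306 and 0.192). Of 8 histone chaperones none was called either. Among 11 replacement variants, most of which are made outside DNA replication from tailed mRNAs (H2afx is known to be made during it as well), the linker histones H1fx and H1f0 fell in tumors against treated skin in both genotypes. H1fx changed by −2.14 and −2.23 (edgeR adjusted p = 0.00687 and 0.00657) and H1f0 by −1.60 and −1.17 (edgeR adjusted p = 0.0323 and 0.00537). The other 9 variants were not called there, H2afz, for example, changing by 0.18 in each genotype and H3f3b by 0.42 and 0.24.

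RNAs without a tail that are not mRNAs were set beside the histone genes as a list of 14, among them the 7SK RNA (Rn7sk), the RNA parts of 2 ribonucleases (Rmrp and Rpph1) and telomerase RNA (Terc). This list was drawn up after histone values were seen. From treated skin to tumors in fl/fl none of the 14 was called and their median was −0.08, beside −1.41 for the histone genes. In ΔEP all 14 estimates were below 0, the median was −0.57 beside −1.50, and Rny3, Rnu11 and Scarna2 were called lower (−1.93, −1.88 and −1.32, edgeR adjusted p = 0.000719, 0.00758 and 0.00159). The summed level of the list was 2943 ± 870 CPM in treated fl/fl against 2730 ± 536 CPM in tumor fl/fl, and 3226 ± 451 against 2508 ± 323 CPM in ΔEP (n = 3 each). Histone CPM per CPM of this list ran from 2.21 to 3.69 in treated and 0.844 to 1.89 in tumor fl/fl libraries. In ΔEP it ran from 2.05 to 3.69 and 1.32 to 1.62, so that treated skin and tumors did not overlap in either genotype. Mock skin did overlap with tumors, at 4.48, 1.25 and 1.34 in fl/fl and 3.02 and 0.774 in ΔEP libraries. The marker sums of fibroblasts and melanocytes were lower in tumors, as the histone sums were. Single fibroblast markers were less uniform: their median was −0.87 in fl/fl, with 1 of 5 estimates above 0, and −0.05 in ΔEP, with 2 of 5. Dcn alone went from 839, 229 and 349 CPM in treated ΔEP to at most 2.90 CPM in tumor ΔEP libraries. The median of the 7 keratinocyte markers was 0.81 in fl/fl, with 1 called higher, and 0.66 in ΔEP, with 3 called higher and 1 lower. In each genotype, 4 of the 7 estimates were above 0. Their sum overlapped between the stages in fl/fl (5464 to 13381 CPM in treated skin, 9186 to 30609 CPM in tumors) but not in ΔEP (4868 to 20899 and 24265 to 24721 CPM). The part of these markers in the difference was not tested.

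Between mock skin and the other stages the result turned on single libraries. Summed histone levels were 11273, 3548 and 2509 CPM in mock fl/fl and 9384 and 5243 CPM in mock ΔEP. Replicate 1 of each group was the highest, the libraries in which keratinocyte markers were low. Treated skin against mock skin gave 0 calls among 66 members in fl/fl and 0 among 68 in ΔEP, where the background was 0% of all genes in each (edgeR; 1 and 2 members had an unadjusted p under 0.05, and DESeq2 called 0 and 1). Estimates were above 0 for 64 of 66 members in fl/fl, with a median log2 fold change of 0.57, and for 56 of 68 in ΔEP, with a median of 0.25.

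Without mock fl/fl replicate 1, 51 of 65 members rose from mock to treated skin in fl/fl and none fell, against 7.97% of all genes called higher and 7.16% called lower. The rise was called for 12 of 18 H2A, 16 of 18 H2B, 10 of 11 H3 and 11 of 13 H4 members, with medians of 2.38, 2.12, 2.07 and 1.43, and for 2 of 5 H1 members, with a median of 0.71 and 4 of the 5 at an unadjusted p under 0.05. No test compared the classes. In the same fit 20 of 26 DNA replication genes and 8 of 14 mitosis genes were called higher, with medians of 1.26 and 1.16. Keratinocyte markers were lower in treated than in these mock libraries, 5464 to 13381 against 18344 and 21357 CPM. The part of the cell mixture in these differences was not tested.

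Tumors against mock skin gave 25 members lower and none higher of 65 in ΔEP, against 7.22% of all genes called lower and 14.3% called either way. Every tumor library lay below both mock libraries for 45 of 65, where 24.2% of all genes did. The members with the smallest p were Hist1h2al, Hist2h4 and Hist3h2a. Hist2h4 was at 119 and 132 CPM in mock and 34.6, 19.4 and 25.8 CPM in tumor ΔEP libraries (log2 fold change −2.33, SE 0.31, edgeR adjusted p = 0.0107). Hist3h2a was at 170 and 99.5 CPM in mock ΔEP and 33.7 to 39.3 CPM in tumors (−1.94, SE 0.30, edgeR adjusted p = 0.0140). The calls of Hist2h4 and Hist3h2a were each lost in some of the fits that left out a library. Their changes in those fits ran from −2.58 to −2.15 for Hist2h4 and from −2.19 to −1.45 for Hist3h2a. The counts of members called were not stable: 14 members were called lower without mock ΔEP replicate 1 (against 13.4% of all genes called lower and 14.7% called higher), 54 without mock ΔEP replicate 2, 2 without tumor ΔEP replicate 1, 1 without replicate 2 and 1 without replicate 3, 13 in one fit over all libraries and 5 with the replicate number as a block. For the other alternative fits, the share of all genes called is not given here. RNAs of the list of 14 without a tail were lower in tumors too, 4 of them called, with a median of −1.18. Without mock ΔEP replicate 1, 11 of the 14 were called lower, with a median of −1.58, while 16 of 26 DNA replication genes and 7 of 14 mitosis genes were called higher, with medians of 1.33 and 1.31. Mock ΔEP replicate 2, which stays in that fit, held 6775 CPM of the RNAs without a tail against at most 3683 CPM in any other library.

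In fl/fl, tumors against mock skin gave 0 calls among 62 members, against 4.11% of all genes (edgeR smallest adjusted p = 0.0504 for Hist1h1e, 9 members with an unadjusted p under 0.05, and 6 called lower by DESeq2). Without mock fl/fl replicate 1 the direction was mixed: the median member was at 0.46, and 3 members were called higher and 2 lower of 58, against 9.45% and 11.5% of all genes. These 5, named after their values were seen, were Hist1h2ac (1.23), Hist1h2bc (1.12) and Hist1h3c (1.05) among the higher and Hist1h1e (−1.63) and Hist2h4 (−1.50) among the lower (edgeR adjusted p = 0.0235, 0.0235, 0.0496, 0.0267 and 0.0391). H1 had a median of −0.74 there and the other classes medians of 0.22 to 0.61.

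**Figure D4:**
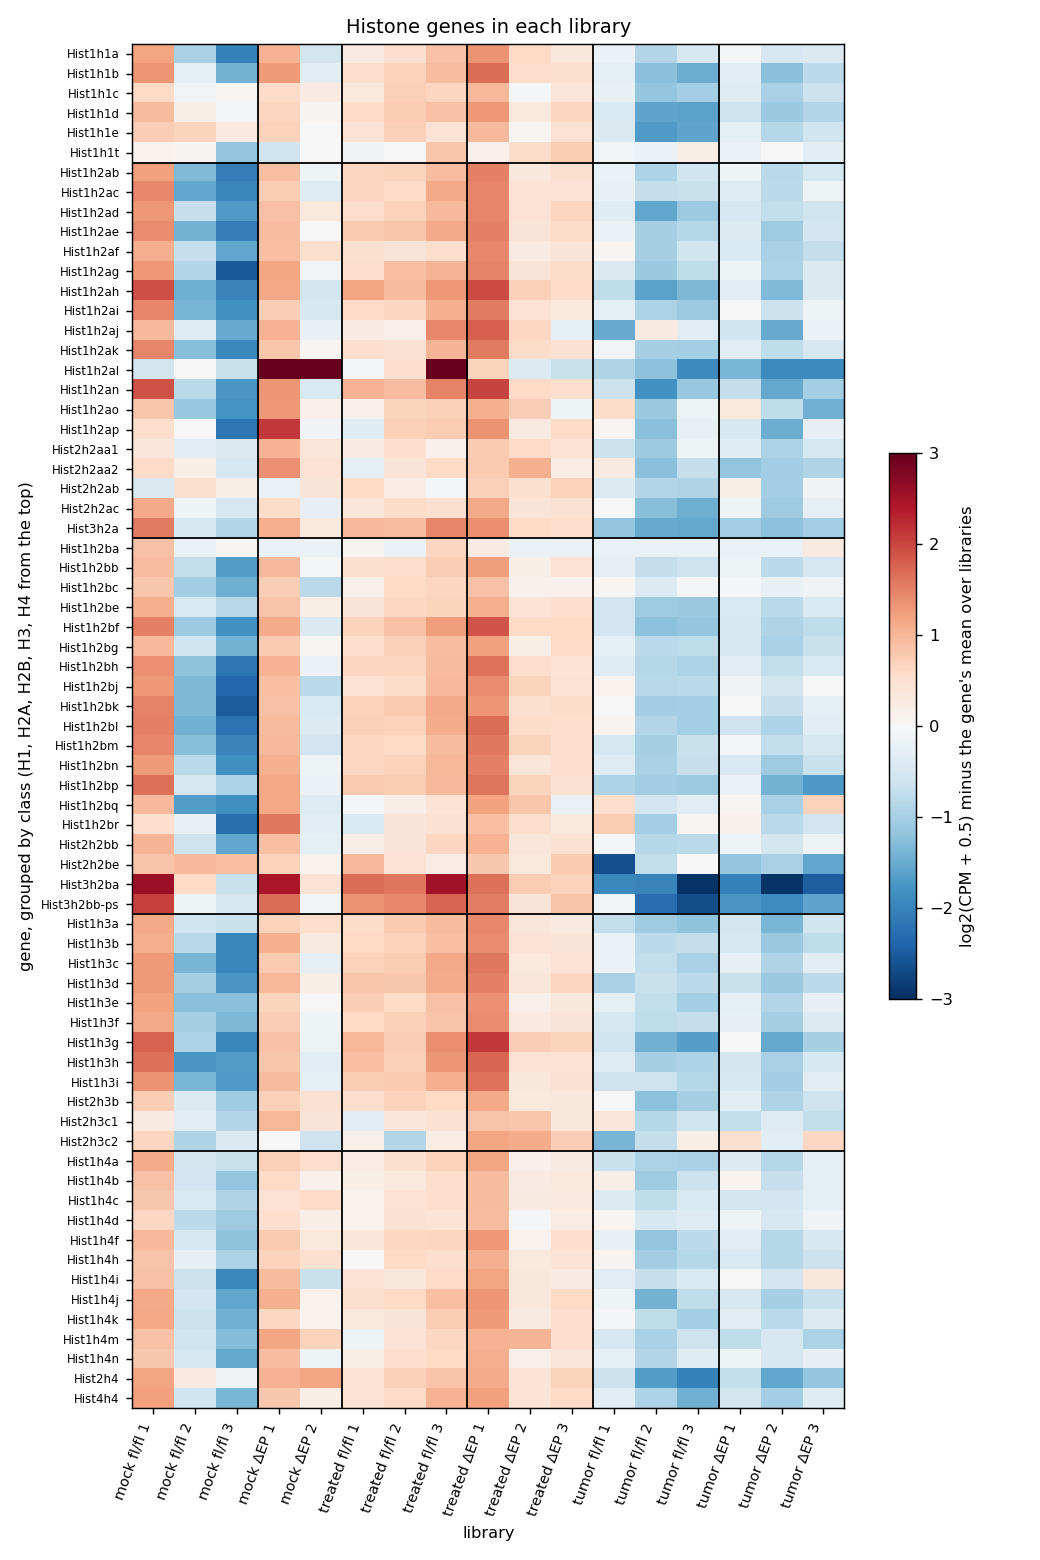
Each row is a histone gene and each column a library; the color is log2(CPM + 0.5) minus the mean of that gene over the 17 libraries, red above and blue below. Treated libraries and replicate 1 of both mock groups are mostly red and tumor libraries mostly blue. Mock fl/fl replicates 2 and 3 are mostly blue in the core classes, Hist2h2be and Hist2h2ab being exceptions, but near 0 for Hist1h1c and red for Hist1h1e.

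Linker histones made up a larger share of the histone level in the mock fl/fl libraries with few histone counts. H1 genes took 35.8% and 40.8% of the histone level in mock fl/fl replicates 2 and 3 and 17.5% to 23.5% in the other 15 libraries. H2A genes took 10.9% and 9.77% in the same libraries and 13.1% to 17.1% elsewhere. Mock ΔEP replicate 2, with an H1 share of 22.3%, did not share this pattern.

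Within H1 the members differed. Hist1h1a stood at 292, 64.5 and 30.8 CPM in the mock fl/fl libraries and Hist1h1b at 519, 169 and 77.6 CPM, so that replicate 1 was 6.11-fold and 4.20-fold above the mean of the others. Hist1h1e stood at 518, 489 and 377 CPM, Hist1h1c at 457, 285 and 312 CPM and Hist1h1d at 448, 261 and 226 CPM, or 1.20-fold, 1.53-fold and 1.84-fold. In mock ΔEP the ratios of replicate 1 to the other library were 3.04 for Hist1h1a, 2.99 for Hist1h1b, 1.58 for Hist1h1e, 1.26 for Hist1h1c and 1.48 for Hist1h1d. Hist1h1a and Hist1h1b thus varied most among the somatic H1 genes in both mock groups. Over the members with at least 10 counts in each library, replicate 1 of mock fl/fl was above the others by a median of 7.24-fold in H2A, 5.79-fold in H2B, 5.57-fold in H3, 3.39-fold in H4 and 1.84-fold in H1.

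Across the stages the make-up of H1 shifted less. Hist1h1d took 20.6% to 22.5% of the H1 level in treated libraries and 15.3% to 18.2% in tumor libraries, and the groups did not overlap in either genotype. Hist1h1e took 20.3% to 24.2% in tumor fl/fl and 27.7% to 27.9% in tumor ΔEP libraries, which did not overlap either. These shares were not tested.

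**Figure D5:**
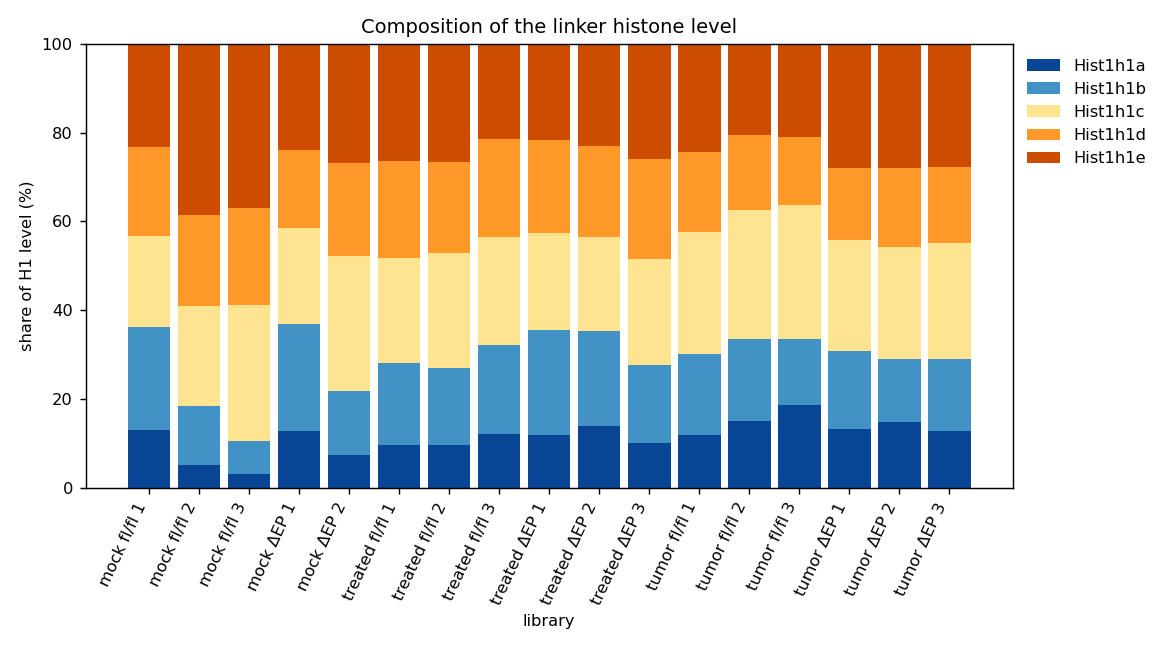
Share of each of the 5 somatic H1 genes in the summed H1 level (vertical axis, percent) in each library (horizontal axis). Hist1h1a and Hist1h1b together are smallest in mock fl/fl replicates 2 and 3, where Hist1h1e reaches 38.5% and 36.9%.

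No histone gene was called between genotypes at any stage. The log2 ratio of mean histone levels, ΔEP over fl/fl, was 0.34 in mock skin, 0.10 in treated skin and 0.14 in tumors, and the libraries overlapped in every class. It turned to −0.14 without mock ΔEP replicate 1, to −0.02 without mock fl/fl replicate 3 and to −0.29 without treated ΔEP replicate 1, so that its direction at these stages rested on single libraries, and it was 0.0061 in tumors without tumor fl/fl replicate 2. No member was called among 66 in mock skin, 68 in treated skin and 59 in tumors, where the background was 0%, 0.00616% and 0.0284% of all genes (edgeR; 1, 3 and 0 members had an unadjusted p under 0.05). Median changes were 0.36, 0.12 and 0.01 on the log2 scale, and in tumors single members ranged from −0.72 to 0.51. The difference between genotypes in the change from one stage to the next was not called for any member either: 0 of 68 for treated against mock skin, 0 of 66 for tumors against mock skin and 0 of 68 for tumors against treated skin, with backgrounds of 0%, 0% and 0.0118% (edgeR; 1, 1 and 0 members had an unadjusted p under 0.05). The median of that difference was −0.31, −0.29 and −0.04.

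Hist1h2al, annotated as a processed pseudogene of an H2A gene and lying far from the cluster (chromosome 13, 51202727 to 51203065, minus strand), had a pattern of its own. It was at 20.8 and 14.7 CPM in the mock ΔEP libraries and at 28.6 CPM in treated fl/fl replicate 3, and at most 2.50 CPM in each of the other 14 libraries. DESeq2 called it higher in mock ΔEP than in mock fl/fl (log2 fold change 4.32, DESeq2 adjusted p = 3.15e-07), while edgeR's estimate of 4.25 was not called (edgeR adjusted p = 1). In ΔEP tumors it had a single library above 0, at 0.223 CPM, and was called lower than in mock skin (edgeR adjusted p = 0.00567). Of its 50-base windows, 67.6% also occur in transcripts of other genes, 17 members among them.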

How the data were processed

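RNA-seq libraries were made with the Ovation SoLo RNA-Seq system and sequenced on an Illumina HiSeq. The authors deposited raw counts per gene, and the table is named for featureCounts. The submitters' processing notes list Trimmomatic 0.36, STAR 2.5.3, HTSeq 0.9.1, DESeq2 and mm10 without roles. Use of strand, multimapped reads and duplicate removal are not given in the sources used here, so counting error is a lower limit of the error. No column lay outside the design.

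The analysis used edgeR 4.0.16 under R 4.3.3 (filterByExpr defaults, TMM, quasi-likelihood F test, two-sided, Benjamini-Hochberg over all genes tested), each comparison on the libraries of its groups, with DESeq2 1.42.0 and the settings named in the closing section as alternatives. SE are from the fit, on the log2 scale. The procedure was tested on simulated data. Of 52636 gene IDs, 52403 were found in GENCODE. The labels state no pairing by replicate number. Over 24 same-numbered pairs, the correlation of deviations from group means ran from −0.546 to 0.782, and 9 were over 0.1. No comparison with 3 pairs had all of them over 0.1, while genotype in mock skin (0.782 and 0.569) and treated against mock ΔEP (0.569 and 0.141), with 2 pairs each, had both. The identical columns were merged after the data were seen.

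The members, lists and tests were chosen with earlier results of these data known. Named members were the 2 of each class with the highest summed counts, Hist1h1c, Hist1h2bc and Hist2h2be, and in each comparison the 3 called members in each direction with the smallest p whose groups do not overlap. Lists of the genes named in the text came from general knowledge. Protein sequences were not used here.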

Additional observations from a re-analysis of the deposited data

How the results depend on the processing

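Between treated skin and tumors the number of members called lower was 46 in fl/fl and 56 in ΔEP. With one fit over all libraries it fell to 15 and 24, and tumors against mock ΔEP fell from 25 to 13, while tumors against mock fl/fl went from 0 to 7. The cause was not tested, and the shares of all genes called are not given in this section. Without a low-count filter, tumors against mock skin gave 11 in fl/fl and 39 in ΔEP, and genotype in treated skin and treated against mock ΔEP gave 1 each. DESeq2 gave 6 for tumors against mock fl/fl, 1 for genotype in mock skin and 1 for treated against mock ΔEP. With the replicate number as a block, tumors against mock skin gave 2 in fl/fl and 5 in ΔEP, and genotype in mock skin and treated against mock ΔEP gave 1 each. The block left 45 and 57 calls between treated skin and tumors, and the shared numbers rest on no stated pairing. The single member in each of the calls of 1 was Hist1h2al, also with a term for mock replicate 1 in mock skin (1 call), a setting added after the data were seen. Leaving out a library gave 0 to 51 calls for treated against mock fl/fl, 0 to 5 for tumors against mock fl/fl, 1 to 54 for tumors against mock ΔEP, 33 to 55 for tumors against treated fl/fl and 36 to 59 in ΔEP. For the summed level, the log2 ratio of group means was −1.34 (fl/fl) and −1.30 (ΔEP) for tumors against treated skin and −1.89 and −1.84 on plain library totals. Leaving out a library moved it from 0.34 to between −0.14 and 1.27 for genotype in mock skin, from 0.10 to between −0.29 and 0.28 in treated skin, from 0.28 to between −0.11 and 0.76 for treated against mock ΔEP, from 0.52 to between 0.16 and 1.45 for treated against mock fl/fl, from −0.82 to between −1.18 and 0.11 for tumors against mock fl/fl, and from −1.03 to between −1.39 and −0.55 for tumors against mock ΔEP. Of 418 values of 35 named fold changes under other settings, 357 kept their call, 61 lost it and no direction turned. Members with a few counts per library, Hist2h2be and the Hist3 H2B genes among them, are limited by depth.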
